A study of Mus musculus with 4 samples.

Results

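Tropomyosins, tropomodulins and leiomodins were followed in cardiac progenitor cells (CPCs) with and without Isl1. The genes were taken by symbol from the deposited transcript table, and comprised 4 tropomyosin genes (Tpm1 to Tpm4), 3 tropomodulin genes (Tmod1 to Tmod3) and 3 leiomodin genes (Lmod1 to Lmod3), 10 of the 20701 genes of the table. Together they had 27 of its 31507 transcript entries, and each gene was represented by the entry with the most counts. The study sequenced polyA RNA of mouse E14 Tg(Nkx2-5-EmGFP) embryonic stem cells, which carry a green fluorescent reporter of the cardiac gene Nkx2-5, after differentiation to CPCs and sorting of the fluorescent cells at day 5. The control group held 2 libraries from control cells of this line, and the Isl1_KO group held 2 libraries from Isl1-/- cells of the same line, edited with CRISPR/Cas9 to remove Isl1, a LIM homeodomain transcription factor of CPCs. According to the protocol the libraries of a group came from different clones, so n is 2 per group and clone and genotype cannot be told apart for a feature that both clones of a group share. The reporter carried by all 4 libraries marks cells by activity of Nkx2-5, so the sorted cells are an enriched population and not a cell type purified by several markers. In such bulk RNA, fewer cells of a type and less RNA per cell cannot be told apart.

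Tropomyosins are coiled-coil proteins that lie end to end along the actin filament, and in heart and skeletal muscle they move with the troponin complex to admit or block myosin. Tropomodulins cap the slow-growing (pointed) end of the filament and bind the last tropomyosin there, which fixes filament length. Leiomodins are related to tropomodulins but start new filaments, and they lengthen them at the same end. Each tropomyosin gene gives many transcripts from alternative promoters and exons, for muscle and for the cytoskeleton of other cells.

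The promoters of 3 members are shown because Tmod1 was the member that passed the test, Lmod1 had the fitted change farthest from 0 and Tpm1 was the most abundant. Each runs from 250 bases before to 50 bases after the annotated start, 5′ to 3′ on the strand of the gene, from RefSeq (GRCm38.p6). Capitals mark the MCAT element, CATTCC on either strand, which TEAD factors bind in muscle genes. The Tpm1 window is chr9:67049164-67049463 on the minus strand, that of Tmod1 is chr4:46038972-46039271 on the plus strand and that of Lmod1 is chr1:135324563-135324862 on the plus strand.
Tpm1: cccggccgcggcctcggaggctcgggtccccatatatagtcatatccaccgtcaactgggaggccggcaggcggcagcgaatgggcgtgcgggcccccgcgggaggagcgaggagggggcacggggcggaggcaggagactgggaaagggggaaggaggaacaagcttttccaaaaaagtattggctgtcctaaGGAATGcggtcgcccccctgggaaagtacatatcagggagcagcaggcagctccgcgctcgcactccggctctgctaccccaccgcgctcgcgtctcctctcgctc
Tmod1: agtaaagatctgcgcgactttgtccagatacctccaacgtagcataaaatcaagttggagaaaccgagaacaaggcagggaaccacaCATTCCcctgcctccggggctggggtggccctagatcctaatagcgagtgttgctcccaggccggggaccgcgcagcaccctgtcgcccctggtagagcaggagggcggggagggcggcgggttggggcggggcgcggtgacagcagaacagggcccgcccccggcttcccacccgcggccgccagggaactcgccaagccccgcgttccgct
Lmod1: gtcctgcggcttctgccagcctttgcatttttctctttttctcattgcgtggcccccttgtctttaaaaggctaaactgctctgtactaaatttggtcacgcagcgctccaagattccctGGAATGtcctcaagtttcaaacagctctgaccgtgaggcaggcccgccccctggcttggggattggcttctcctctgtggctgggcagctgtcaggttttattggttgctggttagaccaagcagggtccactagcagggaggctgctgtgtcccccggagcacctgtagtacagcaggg
RefSeq windows matched 8 of the 10 members, with 10 windows in all, and none was given for Tmod3 and Lmod3. Tpm3 and Tmod2 had 2 windows each. Members are counted below by gene and the background by window, so these shares are not in like units. MCAT occurred in the windows of 3 of the 8 members, against 14.7% of all 32851 promoter windows. Counting the first transcribed base as 0, it lay at -56 to -51 in Tpm1 (minus strand of the gene), at -163 to -158 in Tmod1 (plus) and at -130 to -125 in Lmod1 (minus). It was thus present both beside the member that passed the test and beside Tpm1, which did not. The E-box, the letters CANNTG on either strand, was found in windows of 7 of the 8 members and in 72.3% of all windows. A GATA factor word, AGATAA on either strand, was found in a window of 1 of the 8 (Tpm3) and in 11.2% of all windows. The CArG box of SRF (1.63% of all windows), the MEF2 site (3.19%) and the homeodomain word CTAATG (7.36%) matched no member window, which says only that these letters were not in these windows.

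The libraries held 8821517 and 9147425 counts in control and 13186109 and 11388333 in Isl1_KO with 1 entry per gene. Levels are given as CPM (counts scaled to library size), on which 3 counts, the limit that a count of 0 allows, lay at 0.228 to 0.340 before scaling. Isl1 was at 35.1 and 35.7 CPM in control and at 1.31 and 2.08 CPM in Isl1_KO (log2 fold change -4.39, SE 0.21, edgeR quasi-likelihood adjusted p = 0.00277), in the direction of the labels. The control libraries differed from each other little beyond counting error (chi-square per degree of freedom 1.13 over 12699 genes, p = 2.66e-24), while the Isl1_KO libraries differed far more (18.7). The control libraries were kept as 2 samples because the protocol names different clones. The spread beyond counting error (biological coefficient of variation) was 1.26% in control and 16.1% in Isl1_KO. The spread within groups thus came mostly from the Isl1_KO pair. Over 12699 genes, a p this small does not show that the control libraries are independent clones. Whether they are close to repeats of 1 sample, so that the control side rests on about 1 sample, was not tested. Isl1_KO 2 stood apart for several cell type lists. The summed level of 5 fibroblast markers was 2142 and 2096 CPM in control, 1357 in Isl1_KO 1 and 496 in Isl1_KO 2, and that of 6 blood markers, in control most of it embryonic globin RNA, was 449, 457, 277 and 153 CPM. The blood factors Gata1 and Tal1 of the same list ran the other way and were highest in Isl1_KO 2. Defining skeletal muscle genes summed to at most 0.781 CPM in any library, whereas the cardiac troponin Tnnt2 was at 215 and 222 CPM in control.

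Of the 10 members, 8 passed the filter on low counts and 1, Tmod1, passed the threshold of 0.05 on the adjusted p, in the direction of lower levels in Isl1_KO (edgeR quasi-likelihood test, adjusted over all genes). Over all 12715 genes tested, 1.94% were called lower and 0.503% higher. At an unadjusted p under 0.05, 2 members passed (Tmod1 and Lmod1, both lower), against 23.3% of all genes in either direction. The DESeq2 Wald test also called 1 member. The fitted change was below 0 in 6 of the 8 members tested and their median was -0.16 on the log2 scale, beside a median of -0.003 over all genes tested. Both Isl1_KO libraries lay below both control libraries for 3 members (Tmod1, Tmod2 and Lmod1), where 29% of all genes did so, and above them for 2 (Tpm3 and Tmod3), where 29.1% did. The shares in which groups did not overlap are thus of the size of the background.

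**Figure D1:**
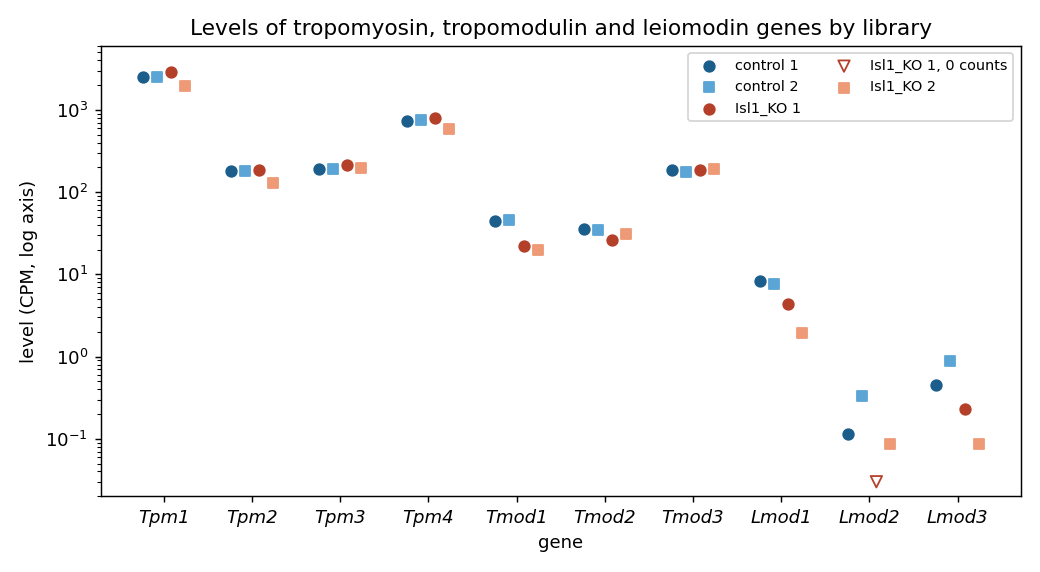
Level of each member in CPM (log axis) in the 4 libraries; filled points are single libraries, and the open triangle marks Lmod2 with 0 counts in Isl1_KO 1. Tmod1 sat at 44.0 and 45.2 CPM in control and at 21.8 and 19.5 CPM in Isl1_KO, while the points of Tpm1, Tpm2 and Tpm4 overlapped between the groups.

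Among the tropomyosins, Tpm1 was the most abundant by far and its level did not separate the groups. Tpm1 (chromosome 9, 66870397 to 66897213, minus strand, NCBIM37, the Ensembl name of mm9) is the main tropomyosin of heart muscle and also gives smooth muscle and cytoskeletal forms. It was at 2518 and 2536 CPM in control and at 2931 and 1966 CPM in Isl1_KO 1 and 2. The control libraries lay between the Isl1_KO libraries, one of which was above and the other below them. The log2 fold change was -0.05 (SE 0.19, 95% interval -0.53 to 0.44, adjusted p = 0.911 by edgeR), so that a change of up to about the size of that interval was not detectable. The fitted value was 0.22 without Isl1_KO replicate 2 and -0.36 without Isl1_KO replicate 1. In these fits the lone Isl1_KO library was assumed to vary like the control pair and both passed the threshold (adjusted p = 1.23e-21 and 3.71e-53), in opposite directions.

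Tpm4 (chromosome 8, 74658874 to 74677041, plus strand), a tropomyosin of the non-muscle cytoskeleton, was the next in level and had the same arrangement of libraries. It was at 742 and 745 CPM in control, at 795 CPM in Isl1_KO 1 and at 578 CPM in Isl1_KO 2. The fitted log2 change was -0.11 (SE 0.16, adjusted p = 0.698 by edgeR), and it was 0.10 without Isl1_KO replicate 2 and -0.36 without Isl1_KO replicate 1. Of its 2203 exonic bases, 134 overlap a non-coding gene on the opposite strand, Gm17371, with which reads could be shared because the counting ignored strand.

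Tpm2 (chromosome 4, 43527583 to 43536637, minus strand), the beta-tropomyosin of smooth and slow skeletal muscle, was at 182 and 179 CPM in control and at 185 and 129 CPM in Isl1_KO. Isl1_KO 2 was again below the other 3 libraries, which were alike. The log2 fold change was -0.20 (SE 0.17, 95% interval -0.64 to 0.24, adjusted p = 0.530 by edgeR), and it was 0.04 without Isl1_KO replicate 2 and -0.49 without Isl1_KO replicate 1.

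Tpm3 (chromosome 3, 89876571 to 89904824, plus strand), which serves slow skeletal muscle and the cytoskeleton of most cells, was at 193 and 190 CPM in control and at 214 and 197 CPM in Isl1_KO. Unlike the other tropomyosins it did not overlap between groups, and it was the member of the family that varied least between the Isl1_KO libraries. The difference was small, at a log2 fold change of 0.10 (SE 0.07, 95% interval -0.08 to 0.28, adjusted p = 0.429 by edgeR). It was 0.16 without Isl1_KO replicate 2 and 0.05 without Isl1_KO replicate 1, with the spread again taken from the control pair.

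Per transcript length, the make-up of the tropomyosin family was nearly the same in the groups. In the RPKM deposited by the authors (reads per kilobase of transcript, scaled to library size), Tpm1 made up 73.9% ± 0.134 of the summed tropomyosin level in control and 74.3% ± 1.59 in Isl1_KO (SD, n = 2 each). Tpm4 made up 17.8% ± 0.00213 and 17.1% ± 0.617, Tpm2 4.26% ± 0.0735 and 3.86% ± 0.0162, and Tpm3 4.08% ± 0.0630 and 4.68% ± 0.954. The order of the 4 genes by RPKM was Tpm1, Tpm4, Tpm2 and Tpm3 in control. In Isl1_KO the levels of Tpm2 (42.9 ± 9.72 RPKM) and Tpm3 (50.8 ± 1.41 RPKM) did not differ beyond their spread.

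The transcript entries of Tpm1 were compared to see whether the balance among its transcripts moved while its level did not. The table listed 10 entries of Tpm1, 3 of Tpm2, 6 of Tpm3, 2 of Tmod2 and 1 of each other member. Counts of the Tpm1 entries overlap heavily, since a read in a shared exon was counted for every entry that holds it. The count of NM_001164250 minus that of NM_001164253 was 2314, 2395, 3932 and 2310 in control 1, control 2, Isl1_KO 1 and Isl1_KO 2, and NM_001164255 minus NM_001164256 gave 2314, 2395, 3932 and 2309. The same difference thus returned in another pair of entries to within 1 count, so entries are not separate measurements of separate transcripts.

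None of the 13 entries of Tpm1 and Tpm2 passed the threshold (0 by edgeR and 0 by DESeq2, adjusted or unadjusted), where 2.2% of all entries did by edgeR. The lowest unadjusted edgeR p among them was 0.278. Fitted changes of the Tpm1 entries ran from -0.14 (NM_001164254) to -0.04 (NM_001164253) on the log2 scale, and those of the Tpm2 entries from -0.21 (NM_009416) to -0.19 (NM_001277875). The absence of calls depended on having both Isl1_KO libraries in the fit. Leaving out either of them moved the gene-level changes in opposite directions. They were -0.36 (Tpm1) and -0.49 (Tpm2) without Isl1_KO replicate 1, and 0.22 and 0.04 without Isl1_KO replicate 2.

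Relative to the entry with the most counts, NM_001164250 (1691 bases), the 5 Tpm1 entries with the fewest counts had lower shares in both Isl1_KO libraries. So did NM_024427, NM_001164249 and NM_001164252. NM_001164253 was higher in both, at 89.57% and 89.66% in control and 89.69% and 89.81% in Isl1_KO. The groups were thus separated for every Tpm1 entry other than the reference, and these entries share reads. Every Tpm3 entry other than the largest, and NM_009416 of Tpm2, were separated in the same way, so this was not particular to Tpm1. How often such shares were separated over all entries was not computed. For gene levels, 29% of all genes were lower and 29.1% higher in both Isl1_KO libraries. NM_001164254 (1172 bases) reached 51.8% and 52.0% of it in control and 47.3% and 49.7% in Isl1_KO. NM_001164248 (1198 bases) reached 62.2% and 62.3% in control and 57.6% and 59.9% in Isl1_KO. In both entries every Isl1_KO value was below both control values, and the Isl1_KO library with the higher Tpm1 level, Isl1_KO 1, had the lower shares. The test of each entry against the others of its gene (edgeR diffSpliceDGE) called none of the 21 member entries, with 0 at an unadjusted p under 0.05 and a lowest p of 0.145. Over all genes with several entries it called 0% of 12786 entries, with 7 at an unadjusted p under 0.05, and its entries share counts as described. The shifts in Tpm1 shares are therefore given as values only.

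**Figure D2:**
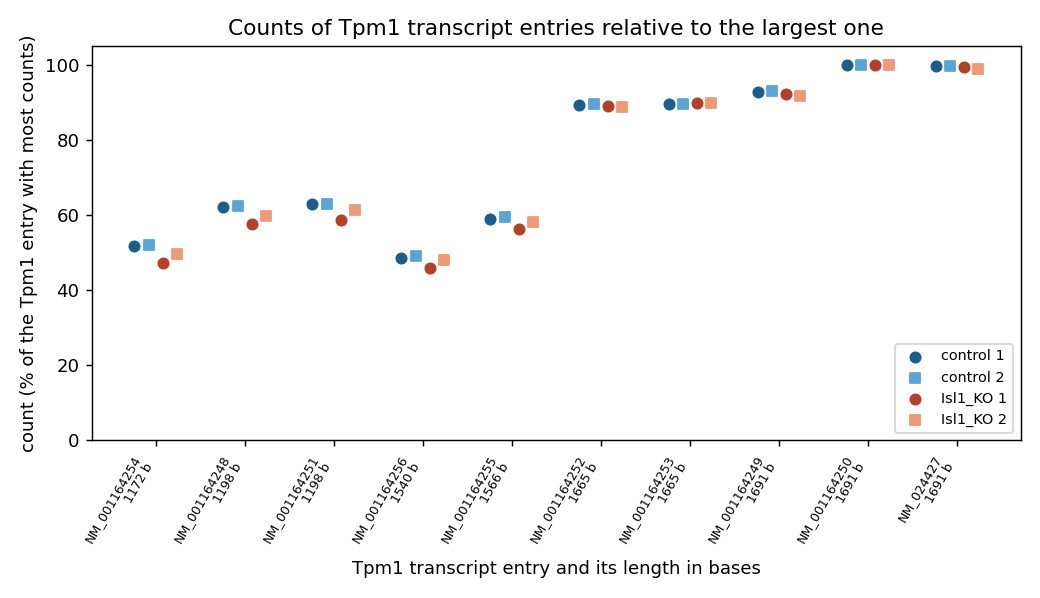
Count of each of the 10 Tpm1 entries as a percentage of the count of NM_001164250 in the same library (vertical axis), ordered by entry length in bases; each point is 1 library. The entries of 1172 to 1566 bases sat lower in Isl1_KO than in control, such as NM_001164254 at 51.8% and 52.0% in control against 47.3% and 49.7% in Isl1_KO, and those of 1665 and 1691 bases lay close together.

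Of the 6 Tpm3 entries, 4 carried nearly all counts and had fitted changes of 0.09 to 0.13. The entry NM_001293749 (1274 bases) was read 186 and 210 times in control and 376 and 329 times in Isl1_KO, where depth was higher. That is 12.5 ± 0.738 CPM and 16.4 ± 0.0657 CPM (SD, n = 2 each). Both Isl1_KO libraries were higher, with a log2 fold change of 0.39 (SE 0.11, unadjusted p = 0.0136, adjusted p = 0.130 by edgeR). The entry NM_001293748 (1125 bases) had 34, 35, 34 and 37 counts and a log2 fold change of -0.40 (SE 0.24, adjusted p = 0.386 by edgeR). The entries of Tmod2, of 9944 and 9880 bases, differed by at most 1 count in any library and cannot be told apart.

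Tmod1 was lower in Isl1_KO in both libraries and by nearly the same amount. Tmod1 (chromosome 4, 46051807 to 46128904, plus strand) encodes the tropomodulin of heart muscle and red cells, which caps thin filaments as myofibrils form. Its counts were 388 and 413 in control and 284 and 225 in Isl1_KO, or 44.0 and 45.2 CPM against 21.8 and 19.5 CPM. The groups were separated by a gap many times the difference between the libraries of a group. On average Tmod1 went from 44.6 ± 0.811 down to 20.7 ± 1.63 CPM (SD, n = 2 each). On the log2 scale the fitted change was -1.11 (SE 0.11, 95% interval -1.38 to -0.83, adjusted p = 0.0162 by edgeR), or 2.16-fold lower. The DESeq2 adjusted p was 3.4e-06. Against the control mean, Isl1_KO 1 was at -1.03 and Isl1_KO 2 at -1.19 on the log2 CPM scale. The call did not hold without control replicate 1 (-1.13, adjusted p = 0.266) or without control replicate 2 (-1.09, adjusted p = 0.263), although the size hardly moved. With the spread taken from the Isl1_KO pair, an alternative chosen after seeing the data, the adjusted p was 0.00152 (edgeR likelihood ratio test).

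Reads of Tmod1 can be shared with Tstd2, a protein-coding gene on the opposite strand, which covers 1287 of the 3946 exonic bases annotated for Tmod1. Tstd2 was at 62.2 and 64.0 CPM in control and at 55.5 and 54.0 CPM in Isl1_KO, a log2 fold change of -0.21 (SE 0.08, adjusted p = 0.197 by edgeR). How many reads were counted for both genes was not tested. The 40 tested genes nearest to Tmod1 (20 on either side) had a median log2 fold change of -0.01, 20 of them above 0 and 1 called lower. Tmod1 is also a red cell gene. The blood list was split. Its sum was at 277 and 153 CPM in Isl1_KO against 449 and 457 in control, and the lower levels lay in the embryonic globins, such as Hbb-bh1 (log2 fold change -1.51, adjusted p = 0.206 by edgeR) and Hba-x (-2.13, adjusted p = 0.222 by edgeR). The blood transcription factors were instead higher in both Isl1_KO libraries, with Gata1 at 9.08, 8.10, 14.5 and 16.4 CPM (0.85, adjusted p = 0.0698 by edgeR) and Tal1 at 38.0, 39.9, 58.3 and 90.1 CPM (0.93, adjusted p = 0.0973 by edgeR). Against the control mean Hba-x was at -1.27 in Isl1_KO 1 and -4.71 in Isl1_KO 2, whereas Tmod1 was at -1.03 and -1.19, and the part of blood cells in the Tmod1 result was not tested.

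The tropomodulin of most cell types, Tmod3, was not lower. Tmod3 (chromosome 9, 75345603 to 75407464, minus strand) was at 184 and 177 CPM in control and at 187 and 192 CPM in Isl1_KO. The Isl1_KO libraries were slightly above the control libraries, with a log2 fold change of 0.07 (SE 0.06, 95% interval -0.09 to 0.24, adjusted p = 0.528 by edgeR). Tmod2 (chromosome 9, 75413428 to 75459132, minus strand), the neighbour of Tmod3 and best known from neurons, was at 35.2 and 34.9 CPM in control and at 26.1 and 30.8 CPM in Isl1_KO. Both Isl1_KO libraries were lower, and the log2 fold change of -0.30 (SE 0.12, 95% interval -0.61 to 0.004, unadjusted p = 0.0521) did not pass the threshold (adjusted p = 0.218 by edgeR). The log2 fold change was -0.42 without Isl1_KO replicate 2 and -0.19 without Isl1_KO replicate 1.

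The make-up of the tropomodulin family moved accordingly. By RPKM, Tmod1 made up 22.4% ± 0.742 of the summed tropomodulin level in control and 11.5% ± 1.02 in Isl1_KO (SD, n = 2 each). Tmod3 made up 72.5% ± 0.798 and 84.0% ± 0.558, and Tmod2 5.06% ± 0.0559 and 4.53% ± 0.463. In both groups the order was Tmod3, Tmod1 and Tmod2, with neighbours separated beyond their spread. These shares follow from the levels above and are no second test.

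**Figure D3:**
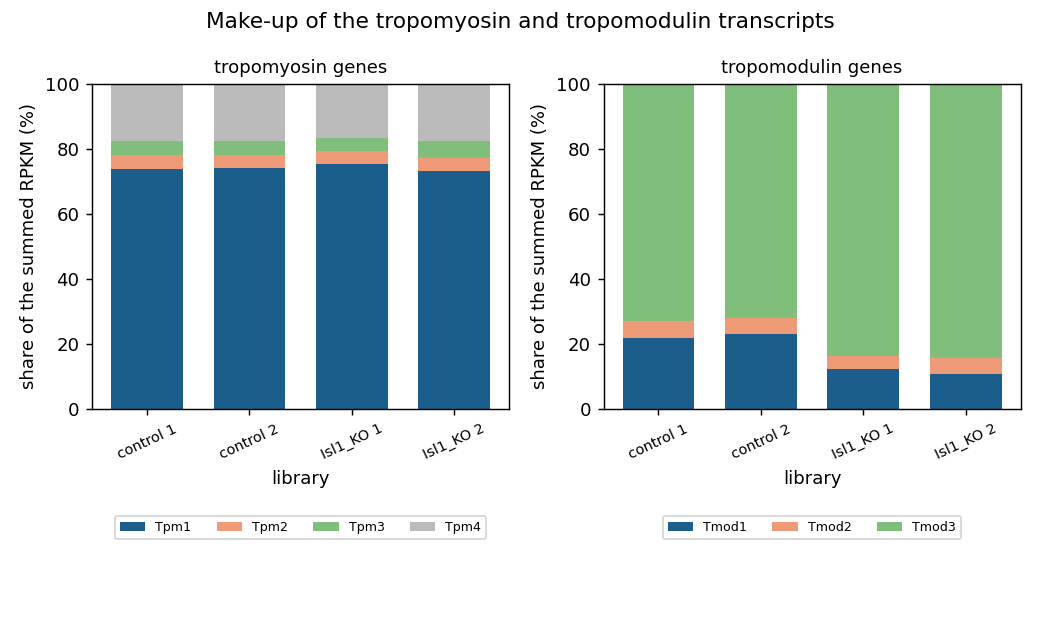
Share of each gene in the summed RPKM of its family (vertical axis, percent) for the 4 libraries, tropomyosins on the left and tropomodulins on the right. Tpm1 took 73.9% of the tropomyosin level in control and 74.3% in Isl1_KO on average, whereas Tmod1 took 22.4% and 11.5% of the tropomodulin level.

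Lmod1, the leiomodin of smooth muscle, was low in all libraries and did not pass the test. Lmod1 (chromosome 1, 137221384 to 137264642, plus strand) was read 74 and 70 times in control and, at higher depth, 56 and 22 times in Isl1_KO, or 8.40, 7.66, 4.30 and 1.91 CPM. Both Isl1_KO libraries were below both control libraries, and they differed from each other by more than the control libraries did. The log2 fold change was -1.35 (SE 0.38, 95% interval -2.32 to -0.38) with an unadjusted p of 0.0154 and an adjusted p of 0.133 by edgeR. It did not pass by edgeR or by DESeq2 (adjusted p = 0.0996), but it met the study's criteria of an unadjusted p under 0.05 and a log2 change beyond 0.58 in DESeq2, by which 4.57% of all genes were lower. Without Isl1_KO replicate 1 the log2 fold change was -2.06 and without Isl1_KO replicate 2 it was -0.90, both past the threshold with the spread of the control pair. In a likelihood ratio test with the spread of the Isl1_KO pair, chosen after seeing the data, it also passed (adjusted p = 0.0342). That setting changed the test as well as the spread. The SE was larger there (0.43 against 0.38), so the pass cannot be put down to the spread.

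The leiomodins of striated muscle were hardly measurable. Lmod2 (chromosome 6, 24547771 to 24555414, plus strand), the leiomodin of heart muscle, was counted 1 and 3 times in control and 0 times and 1 time in Isl1_KO. Lmod3 (chromosome 6, 97188522 to 97202774, minus strand), that of skeletal muscle, had counts of 4 and 8 in control and of 3 and 1 in Isl1_KO. Neither passed the filter on low counts, and a difference between groups was not detectable at this depth.

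The proteins that share the thin filament with the members were set beside them. Of 22 listed partners (actins, troponins, nebulin family, capping proteins and their regulators), 17 were tested, 7 were called lower and 0 higher, where 1.94% of all genes were called lower. The list was chosen with earlier results of these data known, so its share of calls is no test of the list. The fitted change was below 0 in 16 of the 17, with a median of -0.60. The 7 were Actc1, Tnnt2, Tnni1, Tnnc1, Nebl, Fhod3 and Xirp1. Without control replicate 1 or without control replicate 2 3 of the list passed, and without Isl1_KO replicate 1 11 did.

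Actc1, the cardiac actin, fell from 328 ± 5.21 to 45.3 ± 27.3 CPM (log2 fold change -2.85, SE 0.41, adjusted p = 0.0397 by edgeR). Tnnt2, the cardiac troponin that binds tropomyosin, was at 215 and 222 CPM in control and at 13.4 and 7.89 CPM in Isl1_KO (log2 fold change -4.35, SE 0.22, adjusted p = 0.00277 by edgeR). Tnni1, the inhibitory troponin of embryonic heart, fell from 110 ± 1.75 to 18.0 ± 6.70 CPM (-2.60, SE 0.24, adjusted p = 0.0144). Tnnc1, the calcium-binding troponin of heart, fell from 91.5 ± 3.56 to 41.5 ± 3.43 CPM (-1.14, SE 0.09, adjusted p = 0.00902), a size close to that of Tmod1.

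Nebl, a nebulin relative of the heart that binds actin near the Z-disc, fell by 3.87 on the log2 scale (SE 0.19, adjusted p = 0.00277 by edgeR). Fhod3, a formin that assembles cardiac thin filaments, fell by 1.34 (SE 0.17, adjusted p = 0.0319). Xirp1, an actin-binding protein of striated muscle, was counted 160 and 182 times in control but 1 and 0 times in Isl1_KO, so that no fold is given. The list median did not move when Xirp1 was set at the limit that a count of 0 allows. The partner above 0, which was also the 1 higher partner at an unadjusted p under 0.05 (0 by DESeq2), was Tnnt3, a troponin of fast skeletal muscle, at 37.3 and 33.9 CPM in control and 46.0 and 41.8 CPM in Isl1_KO (0.30, SE 0.11, adjusted p = 0.187).

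**Figure D4:**
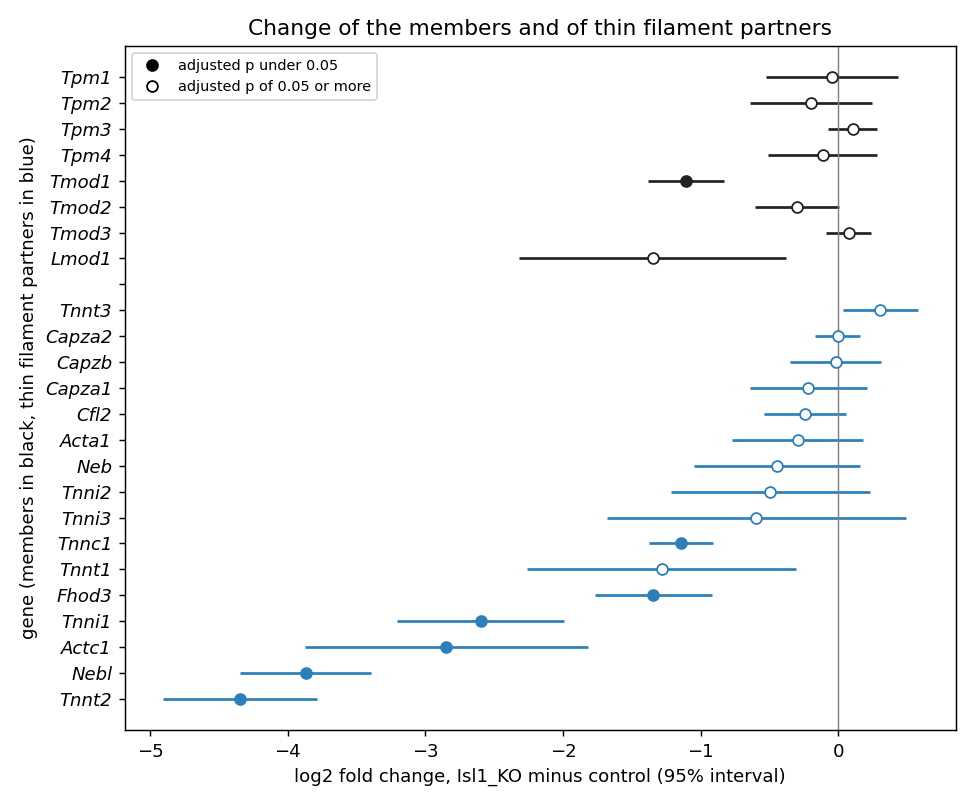
Log2 fold change of Isl1_KO against control with its 95% interval (horizontal axis) for the 8 members tested (black) and 16 thin filament partners (blue); filled points have an adjusted p under 0.05 by edgeR, and Xirp1 is left out because it had 1 and 0 counts in Isl1_KO. Tmod1 is the filled member, at -1.11, while the 4 tropomyosins sit between -0.20 and 0.10 and Tnnt2 at -4.35.

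Measured per length, the cardiac troponins Tnnt2, Tnni1 and Tnnc1 were scarcer relative to Tpm1 in Isl1_KO. In the deposited RPKM, Tnnt2 was at 12.1% ± 0.213 of the Tpm1 level in control and at 0.603% ± 0.0543 in Isl1_KO (SD, n = 2 each). Tnni1 went from 6.83% ± 0.142 to 1.14% ± 0.112 of Tpm1, Actc1 from 15.1% ± 0.315 to 2.06% ± 0.727 and Tnnc1 from 8.81% ± 0.386 to 4.34% ± 1.55. The fast skeletal Tnnt3 did not follow them, at 2.30% ± 0.168 and 3.02% ± 0.642 of Tpm1. Tmod1 was at 1.04% ± 0.0140 and 0.514% ± 0.105 of Tpm1. The barbed-end capping protein Capzb, by contrast, was at 13.9% ± 0.0772 and 14.3% ± 1.41 of Tpm1.

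The 3 tropomyosins that diverged between the Isl1_KO clones did so in the same direction as smooth muscle genes. Most of the 18 cytoskeletal actin regulators listed below diverged in this direction too. Their median change against the control mean was 0.14 in Isl1_KO 1 and -0.08 in Isl1_KO 2. Among them Pfn2, Capg and Diaph1 went the other way. The direction was therefore not particular to smooth muscle genes. Of 11 listed smooth muscle contractile genes, Synpo2, an actin-bundling protein, was called lower (-3.47, SE 0.37, adjusted p = 0.0201 by edgeR) and all 11 fitted changes were below 0. The median change of the list was -0.12 in Isl1_KO 1 and -0.99 in Isl1_KO 2 against the control mean, and the summed level was 4579 and 4545 CPM in control, 4187 in Isl1_KO 1 and 1814 in Isl1_KO 2. The smooth muscle actin Acta2 was at 1638 and 1636 CPM in control, 1137 in Isl1_KO 1 and 276 in Isl1_KO 2, and transgelin (Tagln) at 681, 690, 842 and 346 CPM.

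Isl1_KO 2 was below Isl1_KO 1 by 0.58 in Tpm1, 0.52 in Tpm2, 0.46 in Tpm4 and 1.14 in Lmod1 on the log2 CPM scale. For Tpm3 it was lower by 0.11 and for Tmod1 by 0.16, and for Tmod2 and Tmod3 it was higher by 0.24 and 0.04. The summed level of the members was 3908 and 3916 CPM in control, 4366 in Isl1_KO 1 and 3116 in Isl1_KO 2. The fibroblast collagens Col1a1 (925, 910, 603 and 328 CPM) and Col3a1 (684, 649, 429 and 55.4 CPM) and the embryonic globins were lowest in Isl1_KO 2, whereas the fibroblast marker Thy1 (2.72, 3.06, 2.31 and 3.82 CPM) and the blood factors Gata1 and Tal1 were highest there. How much such cells contribute to the tropomyosin counts was not tested.

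**Figure D5:**
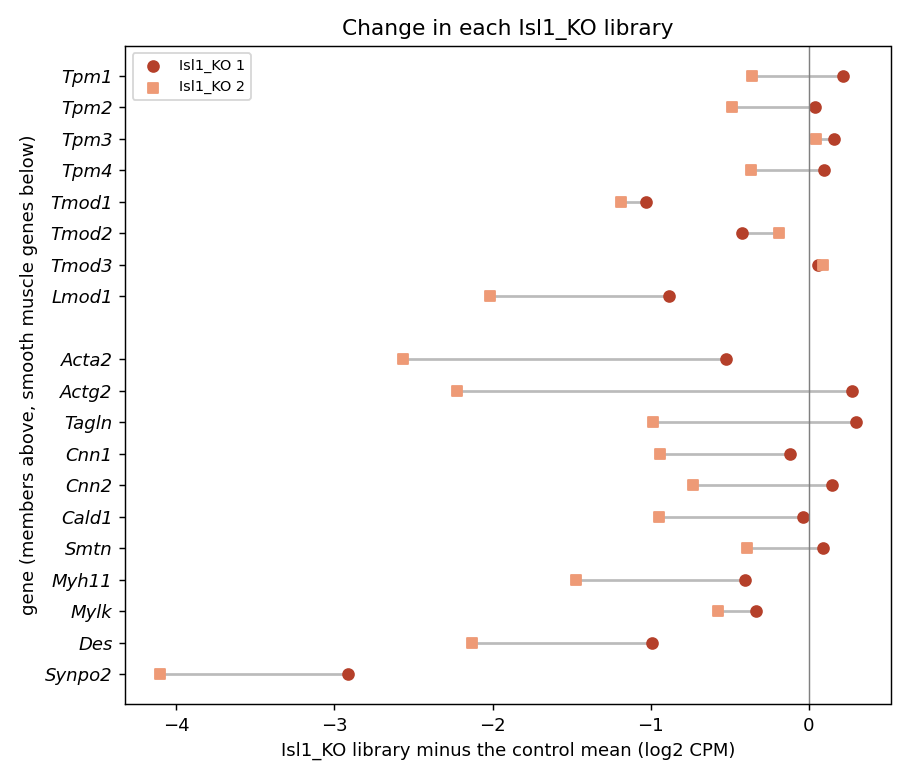
Log2 CPM of each Isl1_KO library minus the control mean (horizontal axis) for the 8 members tested (above) and 11 smooth muscle genes (below); circles are Isl1_KO 1, squares Isl1_KO 2, and the line joins the values of 1 gene. Tpm1 spans 0.21 to -0.36 across 0, Tmod1 stays between -1.03 and -1.19, and the smooth muscle genes all have the square to the left of the circle.

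Other listed regulators of actin and of muscle transcription were read in the same fit. Of 18 cytoskeletal actin regulators, all tested, 1 was called lower and 1 higher, and 7 were below 0, with a median of 0.04. Pfn2, a profilin that supplies actin monomers, fell from 37.7 ± 2.41 to 20.5 ± 0.428 CPM (log2 fold change -0.88, SE 0.11, adjusted p = 0.0306 by edgeR). Daam1, a formin, rose from 180 ± 1.53 to 263 ± 16.5 CPM (0.54, SE 0.07, adjusted p = 0.0359). Daam1 lies on chromosome 12, and the 40 tested genes nearest to it had a median log2 fold change of 0.38, with 32 above 0 and 8 called higher. Among the members tested, the corresponding medians lay between -0.11 and 0.01.

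Of the 8 SRF and MEF2 factors, which switch on muscle actin and tropomyosin genes, 7 were tested, 2 were called lower and all 7 were below 0. Myocd, the SRF partner of heart and smooth muscle, was at 47.0 and 51.4 CPM in control and at 2.54 and 2.43 CPM in Isl1_KO (log2 fold change -4.30, SE 0.14, adjusted p = 0.000695 by edgeR). Mef2c was at 171 and 177 CPM in control and at 11.5 and 6.85 CPM in Isl1_KO (-4.23, SE 0.22, adjusted p = 0.00277). Srf itself was at 173, 169, 152 and 112 CPM (-0.37, SE 0.15, adjusted p = 0.223). Of 10 muscle splicing regulators, 2 were called lower, Rbm20 (-0.83, SE 0.10, adjusted p = 0.0329), which governs titin splicing in heart, and Rbm24 (-2.75, SE 0.10, adjusted p = 0.00103), which promotes muscle exons. Ptbp1 and Ptbp2, which repress muscle exons of tropomyosin transcripts, did not pass, with Isl1_KO 1 and 2 at 0.19 and 0.11 (Ptbp1) and at -0.07 and -0.19 (Ptbp2) against the control mean.

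Of the 33 markers of other cell types (fibroblast and blood markers included), 24 were tested and 0 passed the threshold by edgeR, while 8 had an unadjusted p under 0.05 and 4 passed by DESeq2. The endothelial markers summed to 472 and 485 CPM in control and 466 and 523 CPM in Isl1_KO, with Kdr at 217, 214, 186 and 278 CPM and Flt1 at 58.5, 68.1, 86.9 and 110 CPM. That sum covers a split, since Tek was at 56.2, 57.9, 33.9 and 16.1 CPM (log2 fold change -1.18, adjusted p = 0.132 by edgeR) and Cdh5 at 35.0, 36.9, 30.7 and 16.5 CPM (-0.60, adjusted p = 0.286 by edgeR). The endoderm markers summed to 55.4 and 54.9 CPM in control and 53.3 and 28.2 CPM in Isl1_KO, led by Ttr (30.3, 31.1, 31.2 and 8.85 CPM) and Sox17 (11.5, 8.86, 10.3 and 11.5 CPM). The pluripotent cell markers summed to 70.5, 67.2, 61.0 and 56.7 CPM, with Klf4 at 60.8, 56.1, 50.5 and 33.8 CPM. Pou5f1 was at a mean of 5.68 ± 0.325 CPM against 10.4 ± 6.19 CPM (SD, n = 2 each). This sum was mostly Klf4 and covers a split too. On the log2 CPM scale against the control mean, Pou5f1 was at 0.08 in Isl1_KO 1 and 1.36 in Isl1_KO 2. In the same order Nanog was at -0.105 and 1.11, Esrrb at -0.14 and 0.08 and Klf4 at -0.21 and -0.79. The list median was -0.12 in Isl1_KO 1 and 0.597 in Isl1_KO 2. Zfp42, which was not tested, had 4, 4, 9 and 13 counts. The skeletal muscle markers Pax7 and Myog were at or below 0.607 CPM in every library.

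The genes with the most similar pattern to Tpm1 and Tmod1 were sought among 10762 genes, by the distance of their centred log2 CPM over the 4 libraries. Nearest to Tpm1 were Nes (distance 0.0213), Tes (0.0247) and Flnc (0.0277), with fitted changes of -0.07, -0.04 and -0.07. Nearest to Tmod1 were Uchl1 (0.0744), Acsl1 (0.0840) and Pdzd2 (0.0925), with fitted changes of -1.13, -1.19 and -1.07. These distances rest on 4 libraries only.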

How the data were processed

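RNA of 4 libraries of sorted day 5 CPCs was sequenced from polyA RNA with a stranded kit. The authors aligned the reads with STAR to mm9 (introns of 20 to 500000 bases) and deposited raw counts of exonic reads per RefSeq transcript, counted with HOMER on both strands and without adjustment. The authors also deposited RPKM values calculated with edgeR, as well as a pooled coverage signal per group, log2 fold changes, p-values and scores of their own comparison. The log2, p-value, score and signal columns deposited by the authors were not used. Versions of these tools are not given in the sources used here. No column of values was left without a sample (0).

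For each of the 20701 symbols the transcript with the most counts in all was kept. Counts were tested with edgeR 4.0.16 in R 4.3.3 (filterByExpr, TMM scaling, quasi-likelihood F test, Benjamini-Hochberg adjustment over all genes tested, threshold 0.05), and DESeq2 1.42.0 was an alternative. Intervals are at 95% from the same fit. Levels are CPM with TMM scaling, and changes of single libraries are log2 CPM with a prior count of 1. All 31507 transcript entries were fitted in the same way, and the entries of a gene were compared with diffSpliceDGE. Scripts were tested on simulated counts. Read counts without molecular identifiers cover counting error only.

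Groups follow the sample titles, which say knockout, although the design text speaks of a knockdown. The members, lists and tests were chosen with earlier results of these data known. Named genes were all members and their entries, Isl1, the genes of each list past the threshold (or the 2 with the highest level where none passed) and the 3 genes nearest in pattern to Tpm1 and Tmod1. Acta2, Tagln, Srf, Tnnt3, Capzb, Ptbp1, Ptbp2, Gata1, Tal1, Tek, Cdh5, Thy1 and Tstd2 fall outside this rule and were named after their values were seen. The same holds for Capg, Diaph1, Nanog, Zfp42 and Esrrb. Positions are from GENCODE on NCBIM37, and promoters from RefSeq on GRCm38.p6. The exact permutation test of 2 against 2 libraries cannot go below p = 0.333 and was not used. Totals were 8821517 and 9147425 counts in control and 13186109 and 11388333 in Isl1_KO. P-values measure only the spread between these clones.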

Additional observations from a re-analysis of the deposited data

How the results depend on the processing

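The fitted direction of Tmod1, Tmod2, Tmod3, Tpm3 and Lmod1 was the same under every alternative tried (DESeq2 size factors, no filter, at least 10 counts in every library, the DESeq2 Wald test, the study's criteria, the replicate block, all entries in 1 fit, the longest entry, each library left out, and, chosen after the data were seen, the spread of the Isl1_KO pair). Without Isl1_KO replicate 2, Tpm1 turned to 0.22, Tpm2 to 0.0391 and Tpm4 to 0.0976, whereas without Isl1_KO replicate 1 these genes were at -0.36, -0.49 and -0.36. The number of members called was 1. It was 2 under the study's criteria and 2 with the spread of the Isl1_KO pair (Tmod1 and Lmod1 in both). The setting with the spread of the Isl1_KO pair also changed the test, to a likelihood ratio test. Leaving out 1 library gave 0 to 6 members, 3 to 11 thin filament partners (7 with all libraries), 3 to 56 genes of the other lists (7 with all libraries) and 0 to 13 entries of Tpm1 and Tpm2 (0 with all libraries). Genes called of the other lists numbered 12 by DESeq2, 17 under the study's criteria and 18 with the spread of the Isl1_KO pair. Over all genes, 311 were called, 492 without a filter, 605 by DESeq2, 993 under the study's criteria, 694 with the spread of the Isl1_KO pair, 27 and 29 without a control library and 6350 and 4176 without Isl1_KO replicate 1 or 2. In the last pair of fits the spread came from the control libraries alone, which differ little beyond counting error, and the lone library was assumed to vary like them.

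Replicate numbers 1 and 2 occur in both groups. With the replicate block, 1 member, 7 thin filament partners and 13 genes of the other lists were called, and 454 genes in all, with Tmod1 at -1.11 (adjusted p = 0.0130) and Lmod1 at -1.42 (adjusted p = 0.0735). Libraries with the same number did not deviate together (r = 0.0129 over 10760 genes), so that the numbers give no reason to pair them. Depth limits Lmod2 and Lmod3, with at most 8 counts in a library, and Lmod1, with 22 to 74.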
